A study of Mus musculus with 12 samples.

Results

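The 34 genes described here encode the folding and quality-control machinery of the endoplasmic reticulum (ER) and the sensors and transcription factors of the unfolded protein response. They were listed by name, with earlier results of these data known, and no threshold on their values was used: 11 chaperones and cochaperones, 6 disulfide and prolyl isomerases or their partners, 7 parts of the translocon and signal peptidase, 6 genes of ER-associated degradation and 4 sensors or transcription factors. All 34 were found among the 55414 gene rows and all 34 were among the 14919 genes tested. The RNA came from primary hepatocytes of the mouse liver, the cells that make most plasma proteins, either wild type (WT) or with an Hnf4a knockout (KO). Each genotype received DMSO vehicle or MJ041, which gave 4 groups of 3 libraries: WT with vehicle, WT with MJ041, KO with vehicle and KO with MJ041. HNF4A is a nuclear receptor that maintains hepatocyte gene expression, and MJ041 is a candidate ligand known here by its code name. The labels used here give neither the strain, age or number of animals, nor the means and position of the deletion, nor the dose and duration of MJ041. Nothing states that replicates came from separate animals or cultures, so p-values measure the spread between these libraries, which may be technical.

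Secreted proteins enter the ER through the Sec61 translocon, where the signal peptidase removes their signal sequence and chaperones and disulfide isomerases fold them. Proteins that fail to fold are sent back to the cytosol for degradation, and sensors in the ER membrane, among them IRE1 and ATF6, raise transcription of this machinery through XBP1 and the freed ATF6 fragment. Hepatocytes secrete most plasma proteins and carry a large ER, and they also express Creb3l3, which encodes a liver-enriched ER membrane factor of the ATF6 kind.

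The libraries held 16740761 to 17902832 counts. Levels are given as normalised counts in the unit CPM, scaled to each library's effective size, with the standard deviation (SD) over 3 libraries. Hnf4a fell from 124 ± 12.6 CPM in WT to 65.1 ± 3.57 CPM in KO with vehicle (n = 3), so its transcript was still counted in KO libraries. In KO with vehicle, where 27.5% of all genes tested rose and 26.9% fell, 9 of 12 hepatocyte markers fell and 1 rose, with summed levels of 60032 to 65899 CPM in WT and 28066 to 32576 CPM in KO. Of 8 tested cholangiocyte markers 5 rose and 1 fell, with sums over the 10 listed of 403 to 619 CPM in WT and 550 to 713 CPM in KO. Kupffer cell markers (13 tested; 2 rose and 1 fell) summed to 260 to 524 CPM in WT and 474 to 528 CPM in KO. Endothelial markers (12 tested; 1 rose and 1 fell) summed to 264 to 419 and 255 to 392 CPM, and stellate cell markers (11 tested; 3 rose and 3 fell) to 150 to 186 and 149 to 211 CPM; these last 3 lists had shares near or below those of all genes. Plasma and B cell markers (9 listed, 4 tested; Ighm fell and none rose) summed to 289 to 320 CPM in WT and 262 to 291 CPM in KO with vehicle. Nearly all of that was Sdc1, which epithelial cells also express, at 284, 287 and 315 CPM in WT and 261, 288 and 286 CPM in KO, and Ighm was at 2.10, 1.31 and 1.88 CPM in WT and 0.11, 0.41 and 0.22 CPM in KO. The part of these other cells in the results below was not tested, and in bulk RNA fewer cells of a type and less RNA per cell cannot be told apart.

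Many ER chaperone genes are known to carry an endoplasmic reticulum stress element (ERSE), to which ATF6 and XBP1 bind together with NF-Y. RefSeq promoters of the GRCm38.p6 build, from 250 bases before to 50 after the start site, were found for 28 of the 34 genes. An exact ERSE (CCAAT, 9 bases of any kind and CCACG, on either strand) was present in 9 of the 28 and the related ERSE-II (ATTGG, 1 base of any kind and CCACG, on either strand) in 2 others. Of all 32851 promoters in the table, 39 held an ERSE (0.119%) and 12 an ERSE-II (0.0365%). The 300-base promoter of Hspa5, which encodes the central chaperone BiP, is shown whole because its element is the classical one, at chr2:34771840-34772139 on the + strand (GRCm38.p6), with the matched ERSE in capitals.
Hspa5 promoter: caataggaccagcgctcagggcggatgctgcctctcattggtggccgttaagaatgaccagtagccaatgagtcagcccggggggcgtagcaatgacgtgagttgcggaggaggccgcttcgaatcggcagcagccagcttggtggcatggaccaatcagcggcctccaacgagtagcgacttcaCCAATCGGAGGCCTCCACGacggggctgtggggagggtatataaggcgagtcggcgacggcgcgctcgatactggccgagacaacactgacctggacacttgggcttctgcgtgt

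The windows below show how the element varies among genes whose levels are described next, with only the fixed letters of the element in capitals and each read in the direction of the element. They come from Hsp90b1 (chr10:86705626-86705668 on the - strand and chr10:86705521-86705563 on the + strand), Calr (chr8:84847063-84847105, +), Canx (chr11:50325788-50325830, -), Creld2 (chr15:88819508-88819550, -), Dnajc3 (chr14:118937815-118937857, +), Pdia6 (chr12:17266479-17266521, +), Ero1lb (chr13:12565670-12565712, -), Syvn1 (chr19:6046520-6046562, +), Herpud1 (chr8:94386365-94386399, +) and Dnajb11 (chr16:22857840-22857874, +), all GRCm38.p6.
Hsp90b1 first ERSE: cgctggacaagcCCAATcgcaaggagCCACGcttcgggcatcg
Hsp90b1 second ERSE: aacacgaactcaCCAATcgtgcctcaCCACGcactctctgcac
Calr ERSE: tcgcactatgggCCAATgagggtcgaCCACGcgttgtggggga
Canx ERSE: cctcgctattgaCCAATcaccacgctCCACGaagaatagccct
Creld2 ERSE: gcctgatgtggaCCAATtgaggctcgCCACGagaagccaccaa
Dnajc3 ERSE: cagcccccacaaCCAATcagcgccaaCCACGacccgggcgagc
Pdia6 ERSE: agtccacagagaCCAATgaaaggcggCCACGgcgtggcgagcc
Ero1lb ERSE: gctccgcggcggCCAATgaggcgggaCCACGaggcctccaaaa
Syvn1 ERSE: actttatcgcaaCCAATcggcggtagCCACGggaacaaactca
Herpud1 ERSE-II: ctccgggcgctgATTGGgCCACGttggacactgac
Dnajb11 ERSE-II: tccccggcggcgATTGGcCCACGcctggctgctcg
Positions here are counted along the gene, whichever strand holds the element. The element began 65 bases before the start site in Hspa5, 212 and 107 in Hsp90b1, 162 in Calr, 145 in Canx and 126 in Creld2. In Herpud1 it began 52 bases before the start site and in Dnajb11 it lay 7 bases after it. The letters between the fixed parts differed from gene to gene.

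KO was first compared with WT under vehicle. Most genes of folding, translocation and degradation rose in KO and none of the sensor and factor genes did: 26 of the 34 rose, 2 fell (Xbp1 and Creb3l3) and 6 did not pass (Dnajb9, Sec61g, Ssr2, Derl2, Atf6 and Ern1) at an adjusted p of 0.05 by edgeR's quasi-likelihood test. Of all genes tested, 54.5% were called in this comparison, 27.5% higher and 26.9% lower in KO. The median log2 fold change of the 34 genes was 0.56, and that of all genes tested was -0.002. No overlap between the 3 KO and 3 WT libraries was seen for 28 genes with KO higher and 2 with KO lower, beside 31.6% and 31.5% of all genes. Together the 34 genes took 1.16% to 1.24% of the counts in WT libraries with vehicle and 1.66% to 2.41% in KO libraries with vehicle. Per kilobase of annotated exon in WT with vehicle, the most abundant of them were Hspa5 (600 CPM per kilobase), P4hb (445), Calr (336), Hsp90b1 (312) and Pdia3 (251).

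Of the 11 chaperones and cochaperones 10 rose, with a median log2 fold change of 1.05. Hspa5, whose product BiP binds unfolded chains and holds the sensors inactive, stood at 2449, 2691 and 2478 CPM in WT libraries with vehicle and at 4857, 3212 and 3712 CPM in KO libraries with vehicle. All 3 KO libraries lay above all 3 WT libraries, and the first KO library was the highest. The log2 fold change was 0.63 ± 0.13 (standard error, SE; n = 3), with an adjusted p of 0.0014 by edgeR. Hsp90b1 encodes GRP94, the HSP90 of the ER. It was at 1199, 1346 and 1232 CPM in WT and at 3909, 2410 and 2896 CPM in KO, a log2 fold change of 1.29 ± 0.15 with no overlap (adjusted p = 1.2e-05 by edgeR). Hspa5 thus rose 1.55-fold and Hsp90b1 2.44-fold.

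Creld2, a secreted ER stress protein with disulfide isomerase activity, changed most among the chaperones. Its level was 129, 145 and 154 CPM in WT and 528, 317 and 403 CPM in KO, so that the lowest KO library still lay well above the highest WT library. The log2 fold change was 1.54 ± 0.17 (adjusted p = 7.5e-06 by edgeR). Sdf2l1, a partner of ER DnaJ proteins, was at 47.4, 48.2 and 39.1 CPM in WT and 160, 97.1 and 112 CPM in KO, a change of 1.45 ± 0.16. Manf, a small secreted factor retained by BiP, was at 113, 109 and 104 CPM in WT and 333, 211 and 241 CPM in KO, a change of 1.26 ± 0.14. Hyou1, the nucleotide exchange factor of BiP, was at 227, 255 and 220 CPM in WT and 703, 443 and 511 CPM in KO, a change of 1.24 ± 0.14. In each of these 3 genes the groups did not overlap, and KO replicate 1 was the highest and replicate 2 the lowest.

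The lectin chaperones, which hold glycoproteins during folding, moved by different amounts. Calr, soluble in the lumen, was at 998, 1008 and 900 CPM in WT and 2145, 1543 and 1682 CPM in KO, a log2 fold change of 0.89 ± 0.11. Canx, its membrane-bound relative, was at 543, 557 and 526 CPM in WT and 715, 609 and 631 CPM in KO, a change of 0.27 ± 0.07 (adjusted p = 0.0069 by edgeR). Canx no longer passed without the first KO library with vehicle (0.16, adjusted p = 0.0501 by edgeR).

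Among the DnaJ cochaperones of BiP, Dnajc3 (p58IPK) rose by 1.05 ± 0.15 on the log2 scale and Dnajb11 (ERdj3) by 0.61 ± 0.09. Dnajb9 (ERdj4), which brings BiP to IRE1 and is a known XBP1 target, did not rise. Its level was 94.5, 107 and 108 CPM in WT with vehicle and 100, 62.5 and 79.8 CPM in KO with vehicle, and the first KO library lay between the WT libraries while the other KO libraries lay below them. The log2 fold change was -0.35 ± 0.15 (adjusted p = 0.066 by edgeR), and without the first KO library with vehicle it was -0.57 with an adjusted p of 0.0046. It also passed as lower by DESeq2 (-0.36, adjusted p = 0.041), with no filter on low counts (adjusted p = 0.0011 by edgeR) and with a filter of 1 CPM (adjusted p = 0.043 by edgeR).

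**Figure D1:**
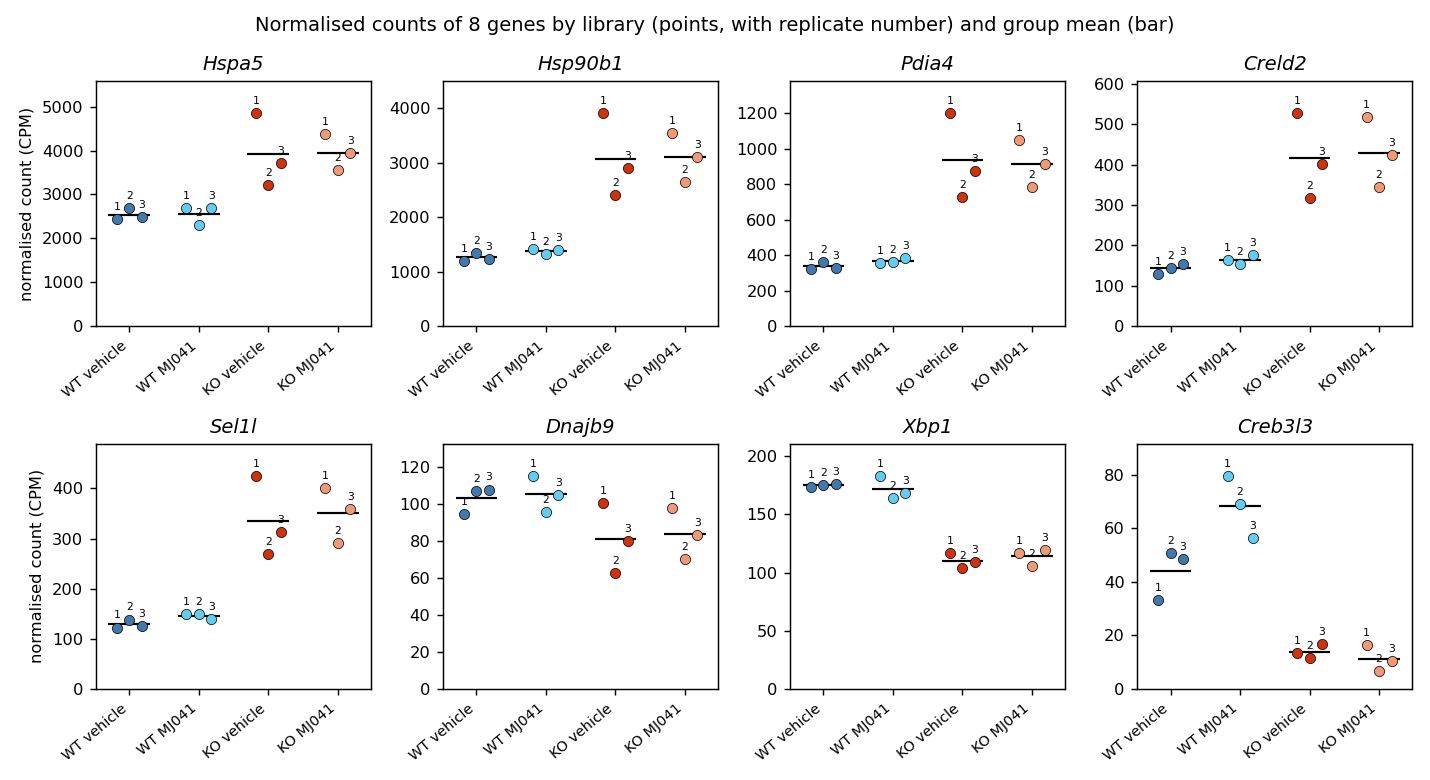
Normalised counts (CPM, linear axis from 0) of 8 genes in each library, with the replicate number beside each point and the group mean as a bar. Hspa5, Hsp90b1, Pdia4, Creld2 and Sel1l lie higher in both KO groups without overlap, Xbp1 and Creb3l3 lie lower without overlap, and Dnajb9 overlaps.

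All 6 disulfide and prolyl isomerases or their partners rose, with a median log2 fold change of 0.72. Pdia4 (ERp72), a disulfide isomerase found in complexes with BiP, was at 321, 363 and 325 CPM in WT with vehicle and 1200, 726 and 874 CPM in KO with vehicle. Every KO library was above every WT library, and the log2 fold change was 1.47 ± 0.15 (adjusted p = 4.5e-06 by edgeR). Pdia6 (P5), which also attenuates IRE1, rose by 0.95 ± 0.12, and Pdia3 (ERp57), the isomerase that works with calnexin and calreticulin, by 0.62 ± 0.10. Ero1lb, an oxidase that recharges these enzymes, was at 19.4, 20.1 and 19.9 CPM in WT and 45.8, 28.4 and 30.6 CPM in KO, a change of 0.82 ± 0.17. P4hb, the classical protein disulfide isomerase, changed less (0.47 ± 0.09), as did Ppib, the ER cyclophilin (0.33 ± 0.07).

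Of the 7 translocon and signal peptidase genes 5 rose, with smaller changes and a median of 0.28. Sec61b, a subunit of the translocation channel, changed most: 43.7, 46.5 and 40.8 CPM in WT with vehicle and 80.9, 71.3 and 78.2 CPM in KO with vehicle. The groups were far apart and the KO libraries close together, and the log2 fold change was 0.82 ± 0.07 (adjusted p = 8.6e-07 by edgeR, the smallest of the 34 genes). Spcs2 of the signal peptidase rose by 0.50 ± 0.08. The pore subunit gene Sec61a1 (0.25 ± 0.08) and the translocon-associated Ssr1 (0.28 ± 0.05) and Ssr3 (0.32 ± 0.09) rose slightly. Sec61a1 and Ssr3 did not pass without the first KO library with vehicle (0.12 and 0.18, adjusted p = 0.15 and 0.051 by edgeR). Ssr2 differed by 0.11 ± 0.07 and did not pass (adjusted p = 0.18 by edgeR). Sec61g was counted at 35 to 41 reads per vehicle library, about 2 CPM, and its change of 0.15 ± 0.23 was not detectable at this depth (adjusted p = 0.62 by edgeR). Whether its reads are shared with near-identical copies could not be checked.

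Of the 6 genes of ER-associated degradation 5 rose, with a median of 0.56. Sel1l, the scaffold of the HRD1 ubiquitin ligase complex, was at 122, 138 and 124 CPM in WT with vehicle and 426, 269 and 313 CPM in KO with vehicle. The groups did not overlap, and the log2 fold change was 1.39 ± 0.15 (adjusted p = 5.9e-06 by edgeR). Herpud1, which recruits the ligase complex, was at 133, 123 and 143 CPM in WT and 317, 187 and 223 CPM in KO, a change of 0.86 ± 0.18. The ligase gene Syvn1 (HRD1) rose by 0.56 ± 0.14 and Edem1, which marks misfolded glycoproteins for disposal, by 0.55 ± 0.10. The Derlins of the dislocation channel had the smallest differences: Derl1 rose by 0.34 ± 0.07, and Derl2 differed by 0.11 ± 0.06 without passing (adjusted p = 0.12 by edgeR).

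None of the 4 sensor and transcription factor genes rose. Xbp1, whose mRNA is spliced by IRE1 to make the active factor, stood at 173, 176 and 177 CPM in WT with vehicle and 117, 104 and 109 CPM in KO with vehicle. The WT libraries were nearly equal and all KO libraries lay below them, a log2 fold change of -0.67 ± 0.06 (adjusted p = 1.8e-06 by edgeR). Counts per gene do not separate spliced from unspliced Xbp1 mRNA. Creb3l3 was at 33.3, 50.8 and 48.5 CPM in WT and 13.3, 11.6 and 16.8 CPM in KO, again with no overlap. Its log2 fold change was -1.66 ± 0.26 (adjusted p = 0.00012 by edgeR), the largest fall of the 34 genes. Ern1, which encodes IRE1 alpha, was at 240, 240 and 251 CPM in WT and 244, 215 and 214 CPM in KO, with the first KO library inside the WT range. It differed by -0.12 ± 0.06 and did not pass (adjusted p = 0.088 by edgeR) and was -0.22 without that library (adjusted p = 0.0049). Atf6 had a change of -0.03 ± 0.07 (adjusted p = 0.71 by edgeR), and its groups overlapped.

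**Figure D2:**
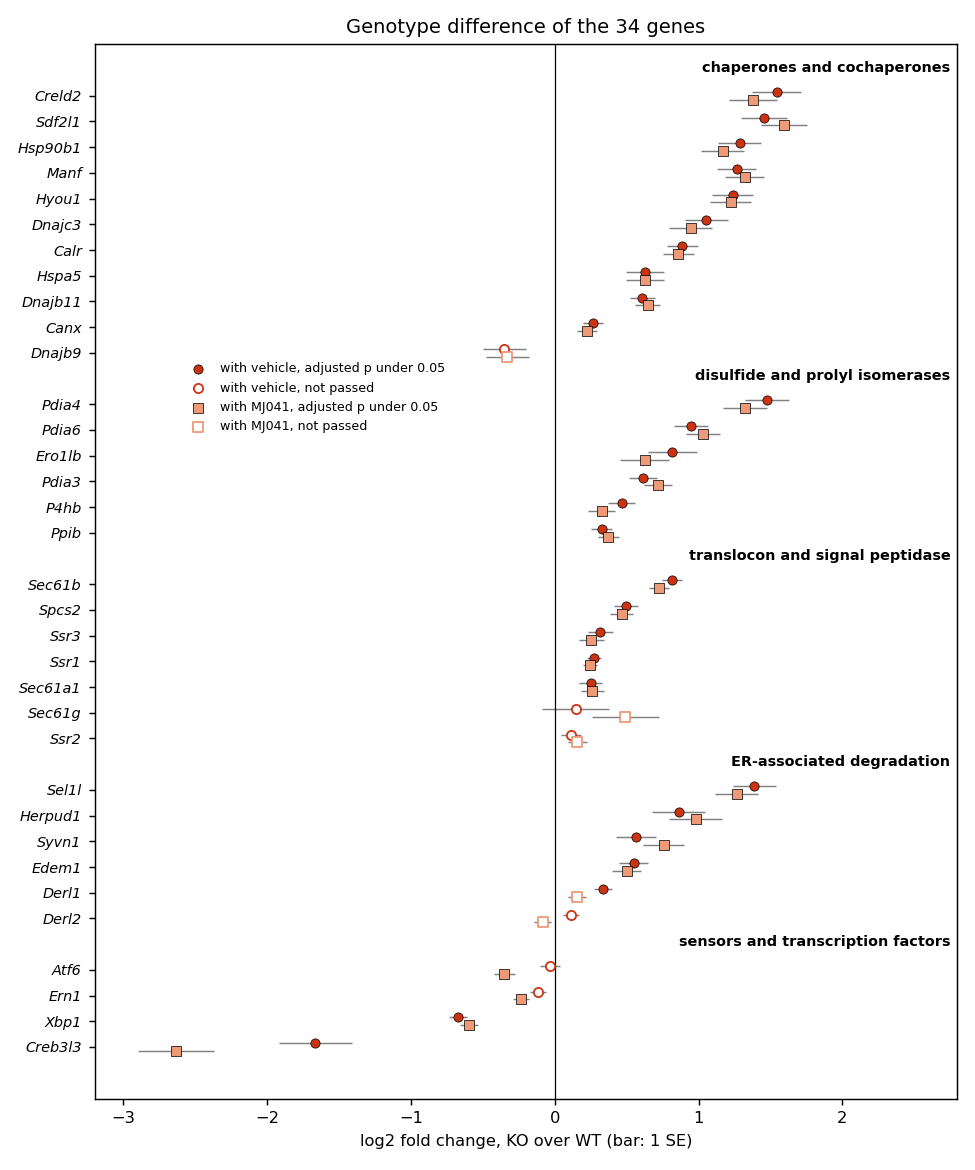
Log2 fold change of KO over WT for each gene, in 5 blocks by role, with 1 SE on each side; circles are the comparison with vehicle, squares that with MJ041, and filled symbols have an adjusted p under 0.05. The folding and degradation genes lie to the right of 0 in both comparisons apart from Dnajb9 and, with MJ041, Derl2, and the sensor and factor genes lie to the left.

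The same genotype comparison was made in MJ041-treated cells, which share no library with the vehicle comparison. Whether cells of both treatments came from the same animals or cultures is not stated, so the genotype comparisons may not be independent of each other. Of the 34 genes 25 rose, 4 fell and 5 did not pass, with a median log2 fold change of 0.56, beside 54.4% of all genes called, 26.8% higher and 27.6% lower, and a median of 0.02 over all genes. Libraries did not overlap for 27 of the 34 genes with KO higher and for 4 with KO lower, beside 29.4% and 29.8% of all genes. With upper-quartile scaling the median of all genes was 0.11 and 59.8% of the called genes were higher in KO, against 49.3% with the main scaling, and 28 of the 34 genes rose and 3 fell. All 25 genes that rose here were among the 26 that rose with vehicle (96.2% of those), the exception being Derl1 (0.16 ± 0.06, adjusted p = 0.059 by edgeR). Both genes that fell with vehicle were among the 4 that fell here (2 of 4). Of 13 Kupffer markers 3 rose and 1 fell here, and of 12 endothelial markers 3 rose and none fell. Of 11 stellate markers 5 rose and none fell. Of 8 cholangiocyte markers 4 rose and 1 fell, and of 12 hepatocyte markers 10 fell and 1 rose. Kupffer sums were 193 to 392 CPM in WT and 490 to 519 CPM in KO, both with MJ041. Endothelial sums were 173 to 305 and 288 to 344 CPM, and stellate sums 94.3 to 153 and 167 to 194 CPM. The part of these cells was not tested.

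By role, 10 of 11 chaperones, 6 of 6 isomerases, 5 of 7 translocon genes and 4 of 6 degradation genes rose, and all 4 sensor and factor genes fell. Sdf2l1 had the largest rise, from 49.1, 41.6 and 43.9 CPM in WT with MJ041 to 151, 120 and 134 CPM in KO with MJ041, a log2 fold change of 1.59 ± 0.16. Creld2 rose by 1.38 ± 0.17, Manf by 1.32 ± 0.14, Pdia4 by 1.32 ± 0.15, Sel1l by 1.27 ± 0.15 and Hsp90b1 by 1.17 ± 0.15. Hspa5 was at 2681, 2302 and 2695 CPM in WT with MJ041 and at 4378, 3548 and 3934 CPM in KO with MJ041, without overlap and with a change of 0.63 ± 0.13, as large as with vehicle. Dnajb9 again did not pass (-0.33 ± 0.15, adjusted p = 0.082 by edgeR), but it did with no filter on low counts (adjusted p = 0.0013) and in a fit to only these 2 groups (adjusted p = 0.040).

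The sensor genes were further apart with MJ041 than with vehicle in 3 of 4 cases, and none of these differences passed when tested as an interaction. Creb3l3 was at 79.7, 68.9 and 56.4 CPM in WT with MJ041 and 16.2, 6.64 and 10.2 CPM in KO with MJ041. The lowest WT library held more than 3 times the level of the highest KO library, and the log2 fold change was -2.63 ± 0.26 (adjusted p = 3.0e-06 by edgeR). Atf6 was at 195, 185 and 165 CPM in WT and 153, 132 and 143 CPM in KO, a change of -0.35 ± 0.07 (adjusted p = 0.0011 by edgeR). Ern1 fell by 0.23 ± 0.06 and Xbp1 by 0.60 ± 0.06, both without overlap.

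The KO libraries differed among themselves in these genes more than the WT libraries did, a pattern chosen after the values were seen. The median coefficient of variation of the 34 genes was 15.7% in KO with vehicle and 7.79% in KO with MJ041, against 6.24% and 6.08% in WT with vehicle and with MJ041. Over all tested genes these medians were 7.66%, 8.43%, 8.08% and 9.49%. Replicate 1 was the highest and replicate 2 the lowest for 26 of the 34 genes in KO with vehicle (76.5%, against 23.8% of all genes) and for 28 of them in KO with MJ041 (82.4%, against 29.2%). This order held in both KO groups for 24 of the 34 genes (70.6%, against 11.2% of all genes). The ratio of the first to the second KO library with vehicle was largest for Herpud1 (1.69), Creld2 (1.66), Pdia4 (1.65) and Sdf2l1 (1.65), and Dnajb9, whose genotype difference pointed the other way, had 1.60. It was 1.12 for Xbp1 and 1.03 for Atf6. Some marker sums ran in the opposite order over the 3 KO libraries: endothelial markers summed to 255, 392 and 329 CPM with vehicle and 288, 344 and 316 CPM with MJ041, and stellate markers to 149, 211 and 192 CPM with vehicle and 167, 194 and 184 CPM with MJ041. Cholangiocyte markers also did, at 550, 713 and 624 CPM with vehicle and 490, 707 and 564 CPM with MJ041. Kupffer markers did not with vehicle (480, 528 and 474 CPM), but did with MJ041 (490, 519 and 514 CPM). Hepatocyte markers summed to 28066, 32576 and 28854 CPM with vehicle and to between 29299 and 30711 CPM with MJ041. The part of these cells in the order of the KO libraries was not tested. Without the first library of both KO groups, 25 of the 34 genes rose and 4 fell with vehicle. Beside them, 3536 of the 15124 genes tested in that setting rose and 4120 fell. With MJ041 26 of the 34 rose and 5 fell, beside 3625 and 4115 of the 15124 genes. Dnajb9 was among those that fell in both comparisons (-0.57 and -0.47).

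**Figure D3:**
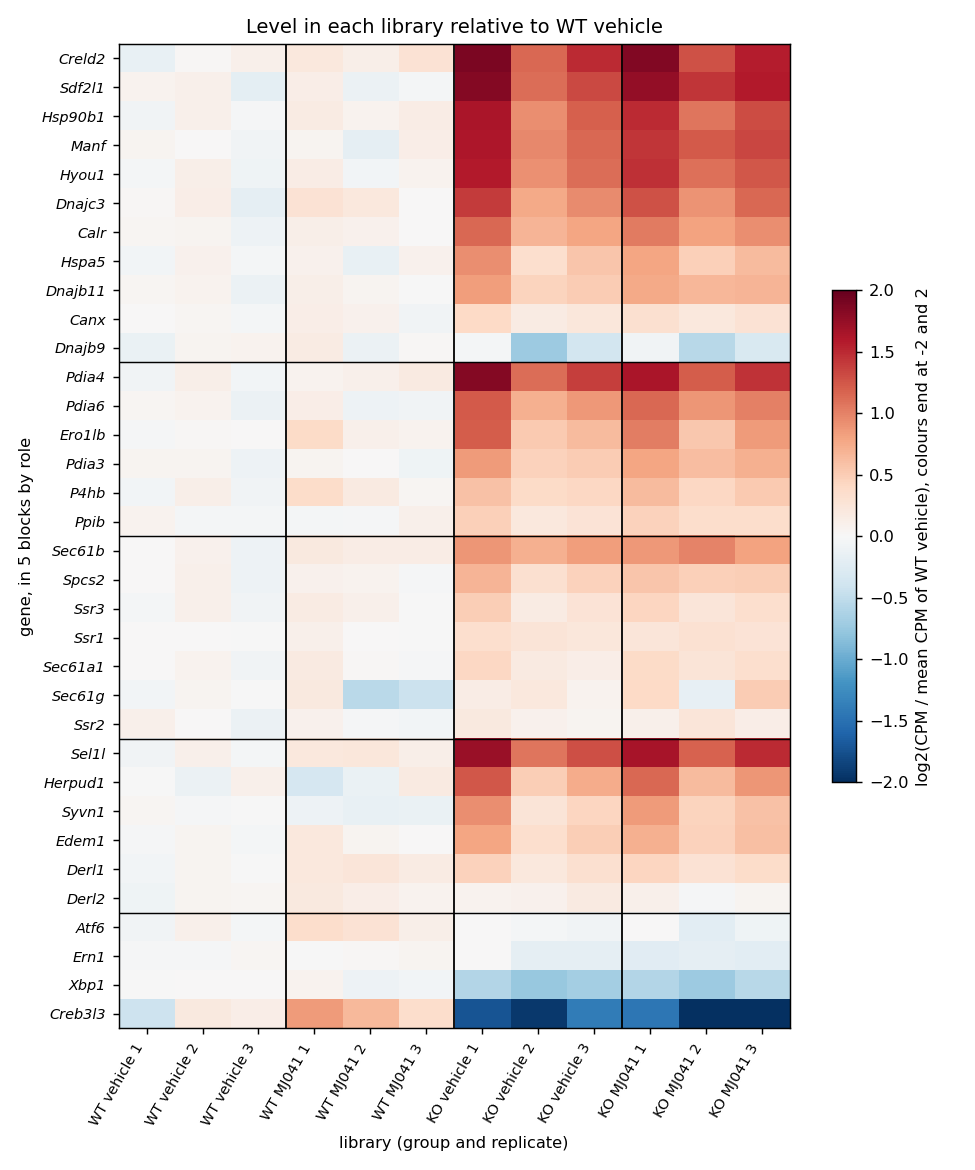
Log2 of each library's CPM over the mean of WT with vehicle, for the 34 genes in 5 blocks by role (rows) and the 12 libraries (columns); the colour scale ends at -2 and 2. Most rows of the folding and degradation blocks are red in the KO columns, and Creld2, Sdf2l1, Hsp90b1, Pdia4 and Sel1l are darkest in replicate 1 of both KO groups; the KO cells of Dnajb9, Xbp1 and Creb3l3 lie below 0.

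MJ041 was then compared with vehicle within each genotype. None of the 34 genes passed in WT cells, where edgeR called 2.21% of all genes (1.19% higher and 1.02% lower). That count of 329 genes is unstable: it was 0 without WT vehicle replicate 1, WT MJ041 replicate 2, KO vehicle replicate 1 or 3 or KO MJ041 replicate 3, 0 in a fit to only the 2 groups, and 2059 without WT MJ041 replicate 3. It was 31 without WT vehicle replicate 3, 49 without WT MJ041 replicate 1, 574 without WT vehicle replicate 2, and 108, 210 and 163 without KO vehicle replicate 2 and KO MJ041 replicates 1 and 2. With upper-quartile scaling that split of all called genes moved from 177 higher and 152 lower to 105 higher and 171 lower, and still none of the 34 passed. The median log2 fold change of the 34 genes was 0.06, beside 0.03 for all genes, and single values ran from -0.22 to 0.63. Hspa5 changed by 0.01 with a 95% interval of -0.28 to 0.30, and Hsp90b1 by 0.13 with an interval of -0.19 to 0.45. Intervals of the 34 genes reached from -0.74 to 1.13 at the widest, so changes inside them were not excluded by these libraries. Libraries did not overlap for 8 genes with MJ041 higher (Creld2, Ero1lb, Sec61b, Sel1l, Derl1, Derl2, Atf6 and Creb3l3) and for Syvn1 with MJ041 lower, beside 13.1% and 9.22% of all genes.

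At an unadjusted p of 0.05, 5 of the 34 genes were higher with MJ041 in WT cells (Sec61b, Derl1, Derl2, Atf6 and Creb3l3), and none was lower, beside 12.1% and 9.47% of all genes. Atf6 was at 146, 163 and 148 CPM with vehicle and 195, 185 and 165 CPM with MJ041, just short of overlapping. Its log2 fold change was 0.26 with an interval of 0.10 to 0.41 (adjusted p = 0.072 by edgeR, and 0.024 by DESeq2). Creb3l3 was higher in each MJ041 library than in any vehicle library, from 33.3, 50.8 and 48.5 CPM to 79.7, 68.9 and 56.4 CPM, a change of 0.63 with an interval of 0.12 to 1.13 (adjusted p = 0.15 by edgeR). Both genes were highest in replicates 1 and 2 of WT with MJ041, which also held fewer transcripts of other liver cells. In replicates 1, 2 and 3 of that group stellate markers summed to 94.3, 102 and 153 CPM, endothelial markers to 173, 182 and 305 CPM and Kupffer markers to 193, 236 and 392 CPM, and the part of these cells was not tested. Without replicate 3 of WT with MJ041, Atf6 passed in WT cells (0.32, adjusted p = 0.011 by edgeR).

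In KO cells none of the 34 genes passed with MJ041, and edgeR called 0% of all genes. At an unadjusted p of 0.05, 414 of the 14919 genes (1.26% higher and 1.51% lower) and none of the 34 passed, and DESeq2 called 1 gene, which was not among the 34. Without KO vehicle replicate 1, 11 of the 34 had an unadjusted p under 0.05 by edgeR, beside 625 of the 15200 genes tested in that setting. The median log2 fold change of the 34 genes was then 0.18 instead of 0.04, with none passing after adjustment by edgeR. Without replicate 1 of both KO groups, 6 of the 34 had an unadjusted p under 0.05 by edgeR, beside 766 of the 15124 genes tested in that setting. In the fit to all 12 libraries, log2 fold changes of the 34 genes ran from -0.34 (Creb3l3, interval -0.94 to 0.26) to 0.14 (Sdf2l1). Hspa5 changed by 0.01 in that fit. Ern1 was the only one of the 34 genes whose libraries did not overlap, with MJ041 lower, beside 4.38% of all genes lower and 5.13% higher.

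The interaction, which subtracts the response to MJ041 in WT from the response in KO, passed for none of the 34 genes, and edgeR called 0% of all genes. At an unadjusted p of 0.05, 1980 of all genes passed (5.68% higher and 7.59% lower), among them Derl2, Atf6 and Creb3l3, and DESeq2 called 218 genes. The Creb3l3 difference was -0.97 with an interval of -1.75 to -0.19 (adjusted p = 0.27 by edgeR), and that of Atf6 was -0.32 (adjusted p = 0.22 by edgeR). For Hspa5 the difference was -0.002. Without replicate 3 of WT with MJ041 the Atf6 difference passed (-0.38, adjusted p = 0.037 by edgeR), and 852 of all genes were called in place of 0. Without KO vehicle replicate 1, 8 of the 34 had an unadjusted p under 0.05 by edgeR in place of 3. Beside them stood 1918 of the 15200 genes tested in that setting. Without WT vehicle replicate 2, edgeR called 7 of all genes.

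**Figure D4:**
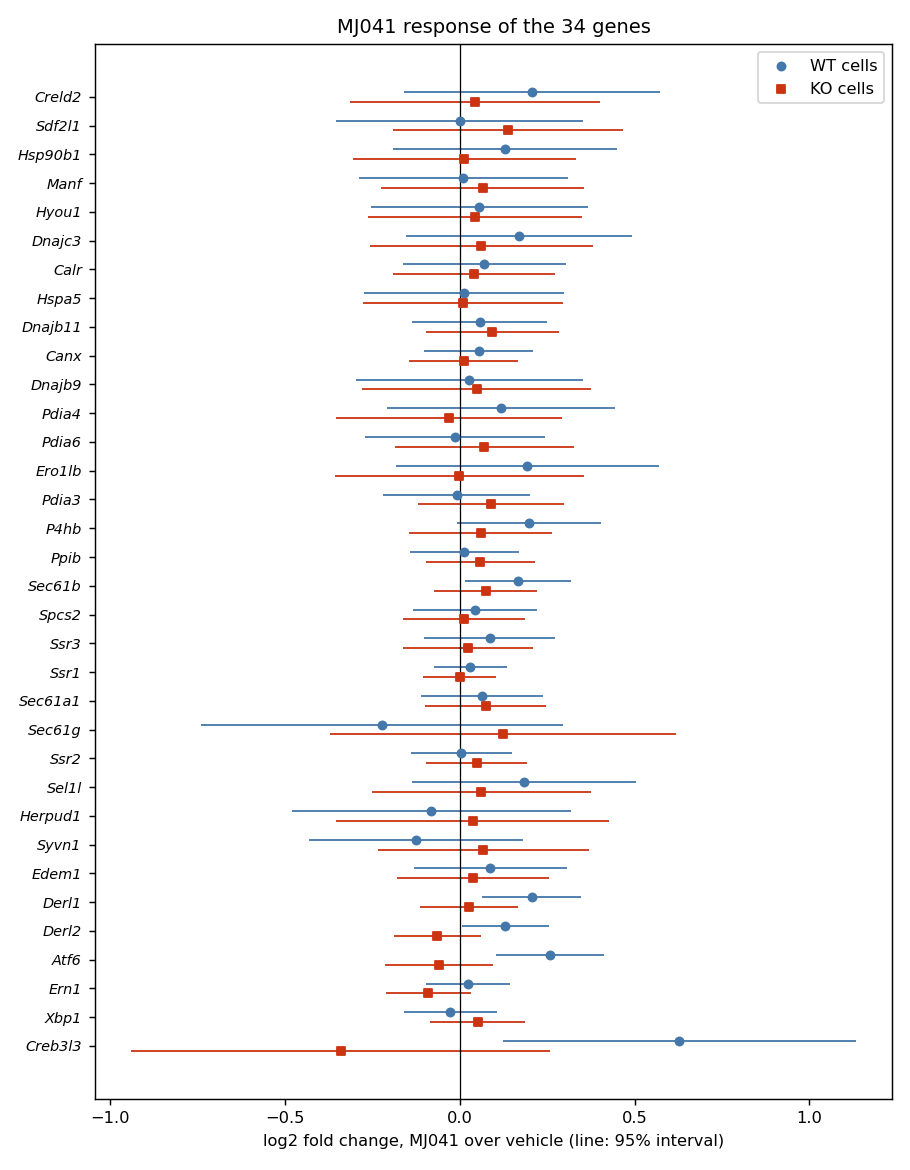
Log2 fold change of MJ041 over vehicle for each of the 34 genes, with its 95% interval, in WT cells (blue circles) and KO cells (red squares). Most intervals span 0 in both genotypes, and the intervals of Sec61b, Derl1, Derl2, Atf6 and Creb3l3 in WT cells lie above 0.

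Other genes of the pathway were read from lists chosen by function. Genes that fold and glycosylate proteins leaned the same way as the chaperones in KO with vehicle, where 27.5% of all genes rose and 26.9% fell. Of 28 other ER folding factors 18 rose and none fell (median 0.27), among them the thioredoxin-like Txndc12 (0.90) and the ER peroxidase Prdx4 (0.65). Of 21 genes of N-glycosylation and glycan quality control 14 rose and 1 fell (median 0.34), among them the oligosaccharyltransferase subunits Ostc (0.83) and Rpn2 (0.64). Of 18 other translocation factors 9 rose and 1 fell (median 0.26), among them the signal peptidase subunit Sec11c (0.95). Srp54a also passed (3.62), but it stood below 0.25 CPM in each WT library with vehicle and its reads may be shared with paralogs, so its value is uncertain. With MJ041 these lists had 16 rises and 2 falls, 13 and 2, and 9 and 1, where 26.8% of all genes rose and 27.6% fell.

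The other lists did not lean that way. Beside them, 27.5% of all genes rose and 26.9% fell with vehicle, and 26.8% rose and 27.6% fell with MJ041. Of 23 other genes of ER-associated degradation 10 fell and 5 rose with vehicle (median -0.15), among them the ubiquitin-conjugating enzymes Ube2j2 (-0.50) and Ube2j1 (-0.44), and 12 fell and 7 rose with MJ041. Of 13 other sensors, proteases and factors 4 fell and 4 rose, shares near those of all genes, and Eif2ak3, which encodes the sensor PERK, fell by 0.87. The level of Eif2ak3 was 45.3, 44.5 and 54.7 CPM in WT with vehicle and 26.8, 25.3 and 27.1 CPM in KO with vehicle, without overlap. Creb3l2, of the same family as Creb3l3, rose by 0.34.

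In the arm of PERK and the transcription factor ATF4, 14 of 20 genes fell and 4 rose with vehicle (median -0.53), and 14 fell and 3 rose with MJ041. Of all genes tested, 27.5% rose and 26.9% fell with vehicle, and 26.8% rose and 27.6% fell with MJ041. Asparagine synthetase Asns (-1.12) and the mitochondrial folate enzyme Mthfd2 (-0.99) fell. Several identifiers carry the symbol Ddit3, and the one with the highest total count was read. Ddit3, which encodes CHOP and is named here after its values were seen, rose by 1.55. It was at 35.1, 33.8 and 28.4 CPM in WT with vehicle and 130, 64.5 and 89.7 CPM in KO with vehicle, in the same order over the KO libraries as Hspa5. Atf4, likewise named after its values were seen, fell by 0.61. Of 6 tested transcripts known to be cut by IRE1, 2 fell (Galnt10, -0.58, and Hgsnat, -0.86) and none rose with vehicle (median -0.12). With MJ041 2 fell and 2 rose (median 0.28). The shares of falls in both comparisons and of rises with MJ041 were near those of all genes. Of 15 cytosolic and mitochondrial heat shock genes 7 fell and 3 rose (median -0.27), among them Bag3 (-0.54) and Hsph1 (-0.48).

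With MJ041 in WT cells, few genes of these lists passed, and since no gene at all was called in the settings named above that gave 0, each of these calls was lost there. The folding factor Erp29 rose by 0.31. In the PERK and ATF4 list 3 of 20 rose, where 1.19% of all genes tested rose and 1.02% fell. Among the 3 were the glutathione-degrading Chac1 (0.85) and the serine synthesis enzyme Psat1 (0.31). Chac1 was at 33.0, 43.7 and 47.5 CPM with vehicle and 69.1, 82.4 and 72.0 CPM with MJ041, without overlap. Of the IRE1-cut transcripts Scara3 fell by 1.83, and the lower stellate marker sums in WT with MJ041 given above stand beside it.

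The promoter matches were set beside the genotype differences as a description. In KO with vehicle 27.5% of all genes tested rose and 26.9% fell. All 11 genes with an exact ERSE or ERSE-II rose there, with a median log2 fold change of 0.86 and a range from 0.27 (Canx) to 1.54 (Creld2). Of the 17 genes whose promoter window held no such letters 11 rose, 2 fell and 4 did not pass. Their median was 0.33, with a range from -1.66 (Creb3l3) to 1.47 (Pdia4). The genes with a match were all chaperones, isomerases or their partners, or degradation genes. Of these same roles, Dnajb9, Sdf2l1, Pdia3, Pdia4, P4hb, Ppib, Edem1, Sel1l and Derl2 held no match. The others without one were Sec61b, Sec61g, Spcs2, Ssr1, Ssr3, Xbp1, Ern1 and Creb3l3. The part of role in this split was not tested. The XBP1-bound element UPRE (TGACGTGG, either strand) was in the window of none of the 28 genes and in 0.676% of all promoters. With at most 1 differing letter allowed in the fixed part of the ERSE, 15 of the 28 genes (53.6%) and 1.5% of all promoters matched, among them Pdia3, Pdia4, Sel1l, Derl2 and Sec61g, which held no exact element. Among genes outside the 34 with an exact ERSE or ERSE-II, 20 were tested, of which 9 rose, 4 fell and 7 did not pass (median 0.15). Derl3, another Derlin, induced by ER stress and named here after its values were seen, was the largest of these rises, from 11.6, 14.98 and 8.56 CPM in WT with vehicle to 94.2, 39.3 and 59.5 CPM in KO with vehicle, a log2 fold change of 2.46. A match in these windows shows the letters and not a bound site.

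**Figure D5:**
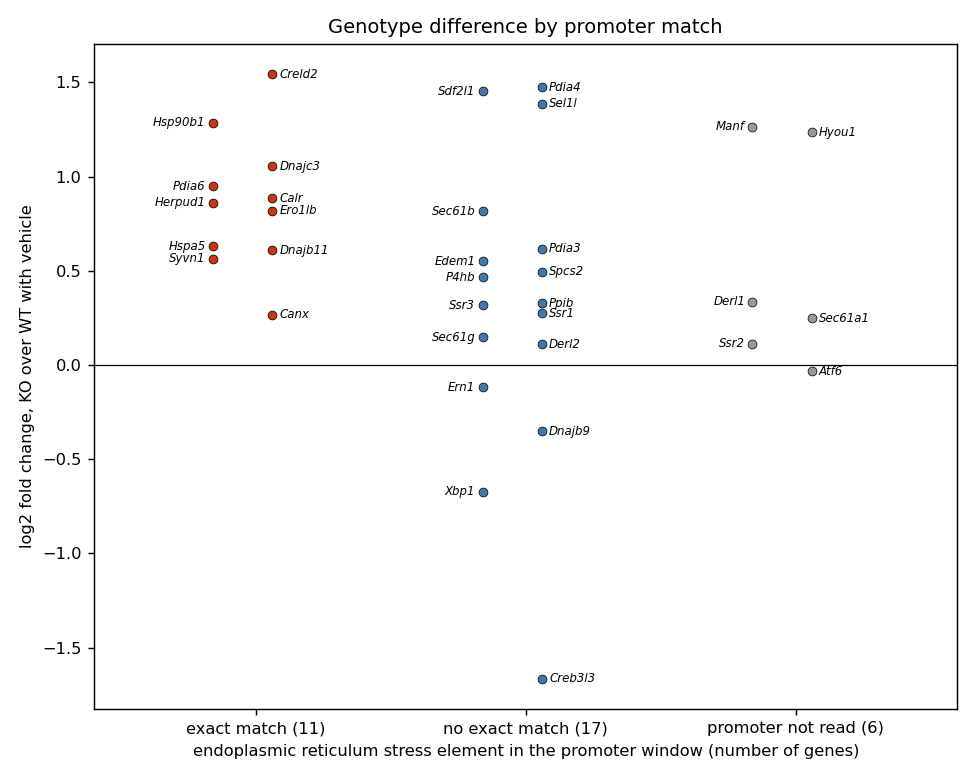
Log2 fold change of KO over WT with vehicle for the 34 genes, split by whether an exact ERSE or ERSE-II was found in the RefSeq promoter window (11 genes), was not found (17 genes) or no promoter was read (6 genes). All genes with a match lie above 0, and those without one spread from Creb3l3 at -1.66 to Pdia4 at 1.47.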

How the data were processed

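Per the labels, total RNA was isolated with a column kit, made into stranded libraries and read on an Element AVITI instrument. Per the submitters' processing notes, FastQC, Trimmomatic 0.34, STAR 2.7.10b, featureCounts and DESeq2 were used with the mouse genome mm39. The roles of these tools and the strand and multimapping settings are not given in the sources used here, so reads shared by close paralogs cannot be checked. The deposited values are raw, whole-number counts for each Ensembl identifier, to which the authors applied no scaling. Symbols and exon lengths came from GENCODE M21, and promoters from RefSeq on GRCm38.p6. That build differs from the one of the alignment, so its coordinates belong to the promoters alone. A symbol was found for 14885 of the 14919 tested genes.

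Counts were tested with edgeR 4.0.16 in R 4.3.3: filterByExpr with a minimum count of 10, TMM scaling and a quasi-likelihood fit with 1 coefficient per group over the 12 libraries. P-values were adjusted by the Benjamini-Hochberg method across the tested genes, and 0.05 was the threshold. The SE is the log2 fold change over the square root of its F statistic, and 95% intervals use the fit's degrees of freedom. Simulated counts with known changes were used to check the fit. The 34 genes, the other lists and the naming rule were chosen with earlier results of these data known. The rule takes all 34 genes, Hnf4a and, from each list, the 2 called genes of smallest adjusted p. Ddit3, Atf4, Derl3 and the plasma cell markers given were named after their values were seen. Counts of replicates differed by more than sampling noise (chi-square over its degrees of freedom 4.39 to 14.6), so each library counted once. Alternatives were RLE and upper-quartile scaling, DESeq2 1.42.0, other filters, fits to only the groups compared, a replicate block and leaving out each library. Leaving out the first library of both KO groups, and the 2 WT libraries with MJ041 low in stellate markers, was added after the data were seen.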

Additional observations from a re-analysis of the deposited data

How the results depend on the processing

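No direction of a called gene reversed under any alternative. The count of the 34 genes called in KO against WT ran from 27 to 30 with vehicle and from 26 to 31 with MJ041, and 25 of the 28 and 23 of the 29 calls held in all 22 settings. The calls lost in at least 1 setting were Canx, Sec61a1 and Ssr3 in both comparisons and Atf6, Ern1 and Ppib with MJ041. For MJ041 in WT, DESeq2 called 1 of the 34 genes (Atf6), the fit with no filter on low counts called 2 (Atf6 and Creb3l3), and leaving out single libraries gave 0 to 1, the 1 being Atf6 without WT with MJ041 replicate 3. For the interaction, the unfiltered fit called 1 (Creb3l3, -0.99) and leaving out single libraries gave 0 to 1, again Atf6 without that library. The cause was not tested. For all genes, DESeq2 called 894 with MJ041 in WT against 329 by edgeR, 1 in KO against 0, and 218 for the interaction against 0. With single libraries left out, the number of all genes called ran from 0 to 2059 with MJ041 in WT and from 0 to 852 for the interaction. With no filter on low counts it was 1667 in WT, 15 in KO and 886 for the interaction. Libraries with the same replicate number did not deviate together throughout (18 pairs within and across genotypes, r from -0.10 to 0.50, 7 over 0.1). The numbers were therefore not taken as pairing. Across genotypes, r of libraries with the same number ran from -0.10 to 0.16. Vehicle and MJ041 libraries of numbers 1, 2 and 3 had r of 0.35, 0.46 and 0.04 in KO and of -0.01, 0.20 and 0.50 in WT. For different numbers r ran from -0.44 to 0.11 in KO and from -0.53 to 0.45 in WT. Whether libraries of the same number share an origin was not tested. The replicate block gave each number 1 effect common to WT and KO, so it did not model pairing within a genotype. With it 29 of the 34 genes passed with vehicle (26 rose and 3 fell) and 31 with MJ041 (26 and 5). Beside them, 8318 and 8287 of all 14919 genes passed. Dnajb9 was added in both and Ssr2 with MJ041, and 0 of the 34 passed in the other comparisons. Without both WT libraries with MJ041 low in stellate markers, 28 and 27 passed, with Ppib and Atf6 lost in the latter. The fit to only the groups compared does not apply to the interaction. Sec61g, at about 2 CPM, had the fewest counts of the 34 genes.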
